A study of Mus musculus with 18 samples.

Results

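GC1spg cells transfected with an siRNA against TGR5 (siTGR5) were compared with GC1spg cells transfected with an siRNA against GFP (siGFP), both kept in DMSO without busulfan (Bu). The comparison holds 10 of the 18 libraries of the series, 5 of siTGR5 DMSO and 5 of siGFP DMSO, and its members are all genes of the deposited table, 31643 in number, of which 14292 passed the filter on low counts and were tested. The libraries were chosen by their labels and by no measured value. The other libraries are 4 of siTGR5 Bu and 4 of siGFP Bu, which repeat the siRNA comparison with Bu and share no library with it. DMSO is the solvent of Bu, so all 10 libraries carry the vehicle, and both groups carry an siRNA. The siRNA sequences, their dose and the time between transfection and harvest are not given in the sources used here. A single siRNA name stands for each target, so nothing in these data separates the target from the sequence of its siRNA. The sources do not say that replicates were separate cultures, so p-values measure only the spread between these libraries, which may be technical.

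TGR5 is the membrane receptor for bile acids and is encoded in the mouse by Gpbar1. It couples to the stimulatory G protein, which activates adenylyl cyclases. The cyclic AMP they make acts on protein kinase A and the exchange factor Epac, and kinase A phosphorylates CREB, which switches on a set of fast-responding genes. An siRNA guides an Argonaute protein to mRNAs that pair with it along its length, and it can also lower mRNAs whose 3′ untranslated region (3′ UTR) pairs only with its seed, the short stretch near the 5′ end of the guide strand. GC1spg is an immortalised mouse line made from type B spermatogonia, and stands in for spermatogonia in culture work.

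The 10 libraries held 29451420 to 49638166 counts. Values are given as TMM-normalized CPM, that is each gene's count scaled to the total of its library, with the total corrected for composition. A gene was called when the Benjamini-Hochberg adjusted p of edgeR's quasi-likelihood test was under 0.05. Of the 34 spermatogonial markers found in the table, 16 had a median over 1 CPM in these libraries, among them Gfra1, the GDNF co-receptor, at a median of 28.4 CPM, and Cd9 at 172 CPM. The germ cell markers Ddx4, Dazl and Zbtb16 had 18, 3 and 1 counts over all 10 libraries together, so the defining germ cell transcripts were near 0. Of the 11 Sertoli markers found, 9 had a median over 1 CPM, the highest being Wt1 at 237 CPM. Others of that list were low, with Sox9 at 3.81 CPM, Amh at 0.334 CPM and Cldn11 with 1 count over the 10 libraries. Transcripts of rod photoreceptors, which no label accounts for, stood out in 3 libraries. Their summed level over 13 markers was 43.3 CPM in siTGR5 DMSO replicate 4, 61.7 CPM in siGFP DMSO replicate 1 and 104 CPM in siGFP DMSO replicate 5, and 1.09 to 2.19 CPM in the other 7 DMSO libraries. With Bu it was 6.62 to 38.5 CPM in 4 libraries, 2 of each siRNA. Such libraries occurred in both groups, and values without them are given below where a call was lost or a main count was recomputed.

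The target transcript was measured at the edge of detection. Gpbar1 (ENSMUSG00000064272, GRCm38 chromosome 1, 74278550 to 74279624) had 18, 16, 18, 11 and 4 counts in the siTGR5 DMSO libraries, against 40, 13, 29, 28 and 28 counts in the siGFP DMSO libraries. In normalized terms these were 0.489, 0.447, 0.36, 0.361 and 0.112 CPM in siTGR5 DMSO and 0.86, 0.445, 0.824, 0.779 and 0.581 CPM in siGFP DMSO. Most siTGR5 libraries were below the siGFP libraries, but siGFP replicate 2 lay inside the siTGR5 range, so the groups overlapped. Gpbar1 averaged 0.354 ± 0.146 CPM in siTGR5 and 0.698 ± 0.178 CPM in siGFP (SD, n = 5 each), 50.7% of the siGFP level. The log2 fold change was -0.99 ± 0.28 (SE) with an adjusted p of 0.0135 in edgeR, and the exact two-sided permutation test gave p = 0.0238. Without the 3 libraries that held rod transcripts the fold change was -0.97 with an edgeR adjusted p of 0.0692, so the call was lost. In RNA of whole cultures, fewer cells with a transcript and less of it in each cell cannot be told apart.

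**Figure D1:**
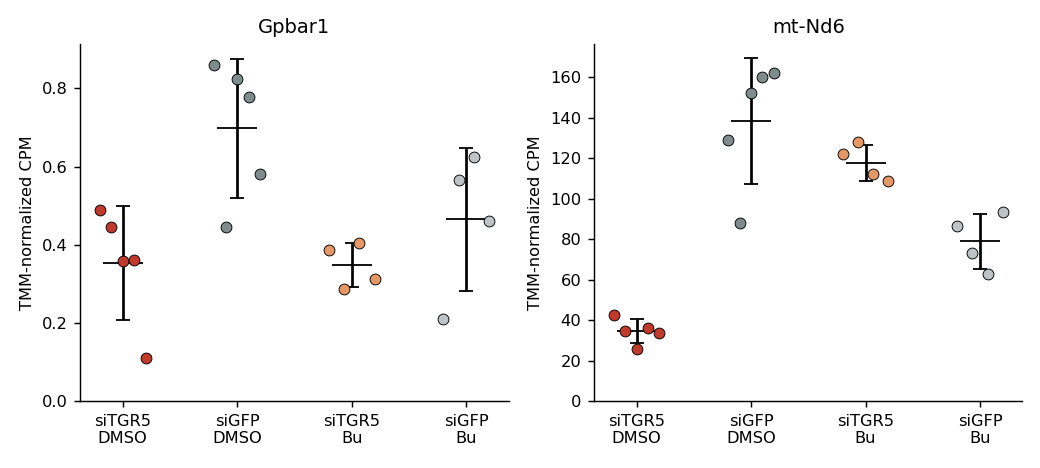
Normalized level (CPM) of Gpbar1, the TGR5 gene, and of mt-Nd6 in each library of the 4 groups; points are libraries, the bar is the mean and the whisker 1 SD. Gpbar1 lies under 1 CPM in every library with overlapping groups, and mt-Nd6 lies at 26.0 to 42.7 CPM in siTGR5 DMSO, below all 5 siGFP DMSO libraries.

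Many other transcripts differed between the siRNAs, most of them by little. Of 14292 genes tested, 4039 were called, 28.3% of them, with 1978 higher (13.8%) and 2061 lower (14.4%) in siTGR5 than in siGFP. The median absolute log2 fold change of the called genes was 0.204, and the median of all tested genes was 0.001. Only 15 genes were higher and 46 lower by more than 1 on the log2 scale, and 180 were higher and 309 lower by more than 0.5. The groups of 5 libraries did not overlap for 2707 genes, 18.9% of those tested, 2575 of them called. Without the 3 rod-transcript libraries 3146 genes were called, 1446 higher and 1700 lower. Genes kept mainly in the nucleus, used here as a sign of RNA quality, had a summed level of 3654 to 4816 CPM in siTGR5 and 3511 to 3806 CPM in siGFP, highest in siTGR5 replicate 5. Of the 21 tested, 8 were called higher, among them the splicing regulators Rbm5 (0.17) and Pnisr (0.32 on the log2 scale), and 2 lower. The number called higher was 3 without siTGR5 replicate 5, 4 without siGFP replicate 1 and 5 without siGFP replicate 3 or 4. With Bu 16 of the 21 were called higher and 0 lower, against 13.8% higher and 16.5% lower of all genes tested with Bu. Their summed level was then 3190 to 3548 CPM in siTGR5 and 2510 to 3052 CPM in siGFP, without overlap. The part of these nuclear transcripts in the other differences, in DMSO or with Bu, was not tested.

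The reductions with the smallest p were of genes with unrelated roles. Gspt1, the GTPase eRF3a of translation termination (ENSMUSG00000062203), had the smallest p of the table. It had 94.8, 93.0, 96.4, 90.9 and 90.5 CPM in siTGR5, against 148, 144, 145, 144 and 151 CPM in siGFP. All siTGR5 libraries lay far below all siGFP libraries, at 63.7% of their mean level, and the log2 fold change was -0.65 ± 0.03 (SE, edgeR adjusted p = 9.98e-10). F2r, the thrombin receptor PAR1, had 121, 121, 121, 127 and 124 CPM in siTGR5 and 179, 184, 175, 176 and 181 CPM in siGFP (log2 fold change -0.54). Npc1, which exports cholesterol from the lysosome, had 64.0, 63.1, 67.4, 67.1 and 64.5 CPM in siTGR5 and 107, 106, 101, 102 and 97.1 CPM in siGFP (-0.65). In both genes the spread within a group was a small part of the distance between groups. Its partner Npc2, the soluble sterol carrier of the lysosome, was also lower (-0.41). The membrane protease Adam10, which sheds the outer parts of receptors and of App, had 245, 233, 239, 238 and 235 CPM in siTGR5 against 354, 339, 325, 349 and 353 CPM in siGFP (-0.53). Atxn7l3b, a relative of a SAGA complex subunit, changed by -0.51, the inositol phosphatase Inpp5a by -0.58, the phosphate carrier Slc20a1 by -0.68 and the lubricating proteoglycan Prg4 by -0.82. These 8 genes were chosen by their p in the same libraries, so the separation of their groups adds no support. Each had the smallest p that the exact permutation test can give with 5 against 5 libraries, 0.00794.

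The genes that rose with the smallest p were likewise varied. Akap5, which anchors protein kinase A and is thus part of the pathway under TGR5, had 61.1, 60.3, 59.8, 59.8 and 64.1 CPM in siTGR5, against 37.5, 36.9, 37.2, 38.2 and 40.6 CPM in siGFP. The groups did not overlap, and the log2 fold change was 0.68 ± 0.04 (SE, edgeR adjusted p = 2.05e-09). Rhbdl3, of the rhomboid protease family, had 144, 143, 141, 142 and 145 CPM in siTGR5 and 97.3, 103, 103, 99.7 and 98.3 CPM in siGFP (0.51). Ermp1, a metallopeptidase of the endoplasmic reticulum, rose by 0.78, and Atp6v0e2, of the proton pump that acidifies vesicles, by 0.61. App, the amyloid precursor that Adam10 cleaves, had 1070, 1090, 1080, 1070 and 1060 CPM in siTGR5 against 832, 797, 834, 827 and 792 CPM in siGFP (0.39). The adhesion receptor Adgrg6 rose by 0.68, the Hippo pathway kinase Lats2 by 0.57 and the guanylate-binding protein Gbp4 by 0.93.

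**Figure D2:**
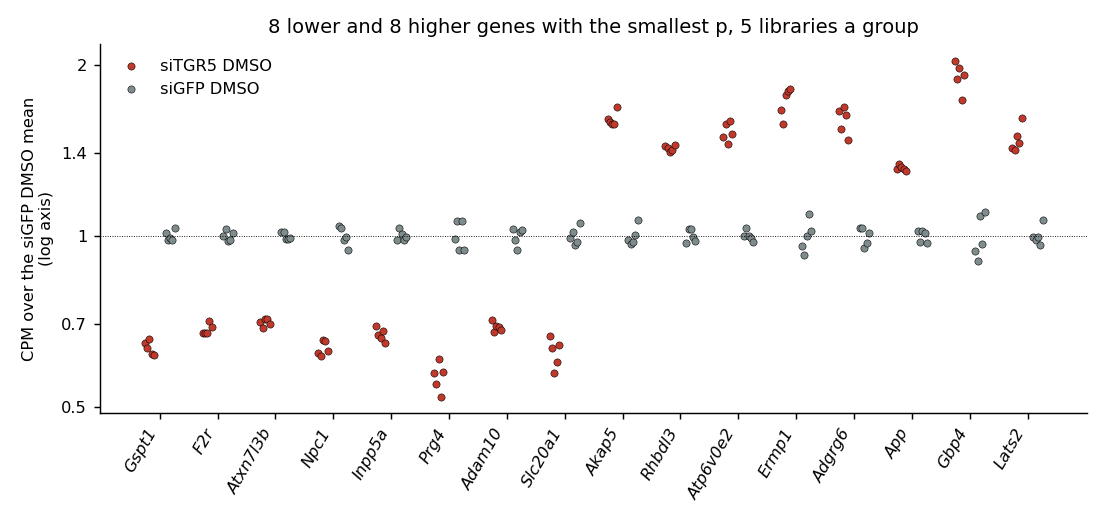
CPM of the 8 lower and the 8 higher genes with the smallest p in each DMSO library, divided by the mean of the siGFP DMSO libraries, on a log axis; each point is 1 library, 5 a group. For all 16 genes the siTGR5 libraries (red, left of each pair) and the siGFP libraries (grey) do not overlap. The genes were chosen by p in these libraries, so this separation adds no support.

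By size of change, among called genes at a mean of at least 1 CPM whose groups did not overlap, the lower genes were led by mt-Nd6 (-2.01), P2rx3 (-1.37), Acsbg1 (-1.33), Dusp9 (-1.28), Acta2 (-1.24) and Ly6a (-1.19). P2rx3, an ATP-gated channel, had 2.91, 2.74, 2.44, 2.04 and 2.06 CPM in siTGR5 and 5.55, 5.96, 7.44, 5.71 and 6.89 CPM in siGFP. Acta2, smooth muscle actin, had 8.12, 9.35, 7.81, 6.77 and 6.55 CPM in siTGR5 and 16.4, 18.2, 19.5, 18.8 and 18.2 CPM in siGFP. Dusp9, a phosphatase that switches off ERK, had 3.26, 3.04, 2.62, 2.99 and 2.82 CPM in siTGR5 and 6.43, 7.54, 7.39, 7.74 and 6.68 CPM in siGFP. Separate groups were a condition for entering this list, so the separation of these libraries is not a result. Under the same conditions the higher genes were led by 2 that respond to zinc, the metallothionein Mt2 (1.13 ± 0.16) and the zinc exporter Slc30a1 (1.11 ± 0.11). Slc30a1 had 8.31, 9.49, 11.8, 10.4 and 13.3 CPM in siTGR5, against 5.42, 4.42, 4.83, 4.84 and 5.08 CPM in siGFP. Mt2 had 10.4, 14.4, 19.4, 12.1 and 20.3 CPM in siTGR5, against 8.26, 5.75, 8.01, 6.32 and 6.51 CPM in siGFP. The siTGR5 libraries differed more among themselves in both genes than the siGFP libraries did. Mt1, looked up after the values of Mt2 were seen, rose by 0.41 (edgeR adjusted p = 0.00469). Col11a2 (0.98), Sec14l5 (0.96), Fa2h (0.93) and Gbp4 (0.93) followed.

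Because seed pairing of an siRNA acts through 3′ UTRs, the 3′ UTRs of the tested genes were read for short sequences that went with lower values. A 3′ UTR was found in the GENCODE M21 annotation (GRCm38) for 12370 of the tested genes, and each of the 4019 sequences of 6 bases present in at least 300 of them was ranked by the median log2 fold change of the genes that held it. The sequence was searched on the mRNA strand only, and overlapping matches were counted. GCCTAC had the lowest median in DMSO, -0.017 over 2137 genes, against 0.003 over all genes with a 3′ UTR. Next came 2 sequences rich in C and G, CCCGCG (-0.016, 303 genes) and CGCCGC (-0.011, 353 genes), so the distance in median from the next sequence was small. GCCTAC was chosen by these values, so its numbers in DMSO are a description and not a test. Of the 8 lower genes with the smallest p, 7 held it in the 3′ UTR, Gspt1 with 2 copies and Prg4 with none. The copies in 6 of these genes follow in the sense of the mRNA with GCCTAC in capitals, and the copy in Npc1 is not shown. Whether these genes share other sequences was not tested. The last 2 lines are the copies in the coding sequence of the Gpbar1 mRNA itself, the only 2 in its 1075 bases.
Gspt1 at chr16:11220760-11220785, minus strand: gactgcaaaaGCCTACttcacaccgc
Gspt1 at chr16:11220540-11220565, minus strand: ggacataattGCCTACaataatgaaa
F2r at chr13:95602439-95602464, minus strand: atgcccttcaGCCTACaaaattacac
Atxn7l3b at chr10:112926827-112926852, minus strand: ctcctccgaaGCCTACacaagtttcc
Inpp5a at chr7:139579183-139579208, plus strand: gtgccaagtaGCCTACattaaaacca
Adam10 at chr9:70778113-70778138, plus strand: tcttcctagtGCCTACagtgggaaaa
Slc20a1 at chr2:129211586-129211611, plus strand: tgaataaaaaGCCTACagtttttaga
Gpbar1 at chr1:74278753-74278778, plus strand: ttcttcctaaGCCTACtactagccgg
Gpbar1 at chr1:74279532-74279557, plus strand: ccccagcactGCCTACcacaccagta

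The share of genes with a GCCTAC site depended on how the lower genes were ranked. A site was present in 33 of the 50 lower genes with the smallest p (66.0%) and in 55 of the 100 (55.0%), against 10 of the 50 and 18 of the 100 (18.0%) higher genes with the smallest p, and 17.3% of all genes with a 3′ UTR. Ranked by size of change the share was smaller, with a site in 47 of the 235 genes lower by more than 0.5 on the log2 scale. P2rx3, Acsbg1, Acta2 and Ly6a, among those with the largest reductions, held none and Dusp9 held 1. The 100 lower genes with the smallest p had shorter 3′ UTRs than the 100 higher genes with the smallest p, with medians of 1108 and 2121.5 bases. Over all called genes a site was present in 24.4% of the lower, 15.5% of the higher and 16.1% of those not called. Per 1000 bases of 3′ UTR these were 0.233 sites in the lower, 0.0875 in the higher and 0.129 in the uncalled genes. The genes called lower had a median 3′ UTR of 895 bases and those called higher one of 1540 bases. Whether any of these sites pairs with the siTGR5 siRNA was not tested, since its sequence was not at hand.

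With more sites the values were lower. The median log2 fold change was -0.085 in the 61 genes with 3 or more sites, -0.031 in the 288 with 2, -0.014 in the 1788 with 1 and 0.007 in the 10233 with none. The share called lower was 42.6%, 26.0%, 20.6% and 14.2% in the same order, and the share called higher 6.56%, 11.5%, 14.1% and 15.4%. Genes with more sites also had longer 3′ UTRs, with medians of 4654, 3223, 2050 and 866 bases. Under 500 bases the median log2 fold change was -0.106 with a site and -0.02 without, from 1000 to 2000 bases -0.025 and 0.019, and at 4000 bases or more 0.014 and 0.056. The flanks differed as well: the median was -0.036 where A stood before the hexamer and -0.003 where G did, and -0.035 where A stood after it and -0.002 where C did.

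The Bu libraries took no part in choosing the sequence. With Bu the medians were -0.129, -0.025, -0.018 and 0 for 3 or more, 2, 1 and no sites, and GCCTAC ranked 2 of the 4019 sequences from the lowest. The median deviation of the genes with 3 or more sites from the mean of all siGFP libraries of the same agent was -0.073, -0.093, -0.06, -0.097 and -0.112 in the siTGR5 DMSO libraries, against 0.02, -0.003, -0.025, 0.04 and -0.008 in the siGFP DMSO libraries. It was -0.089, -0.084, -0.09 and -0.114 in the siTGR5 Bu libraries, against 0.029, -0.039, 0.012 and 0.019 in the siGFP Bu libraries, all on the log2 scale. For these genes with 3 or more sites the siTGR5 Bu libraries all lay below the siGFP Bu libraries. For genes with fewer sites the libraries overlapped. The median of genes with any site minus that of genes with none was -0.028 to -0.019 in the siTGR5 Bu libraries and -0.044 to 0.025 in the siGFP Bu libraries, siGFP Bu replicate 2 being the lowest. In DMSO it was -0.032 to -0.014 in the siTGR5 libraries and -0.02 to 0.01 in the siGFP libraries, which overlap as well.

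**Figure D3:**
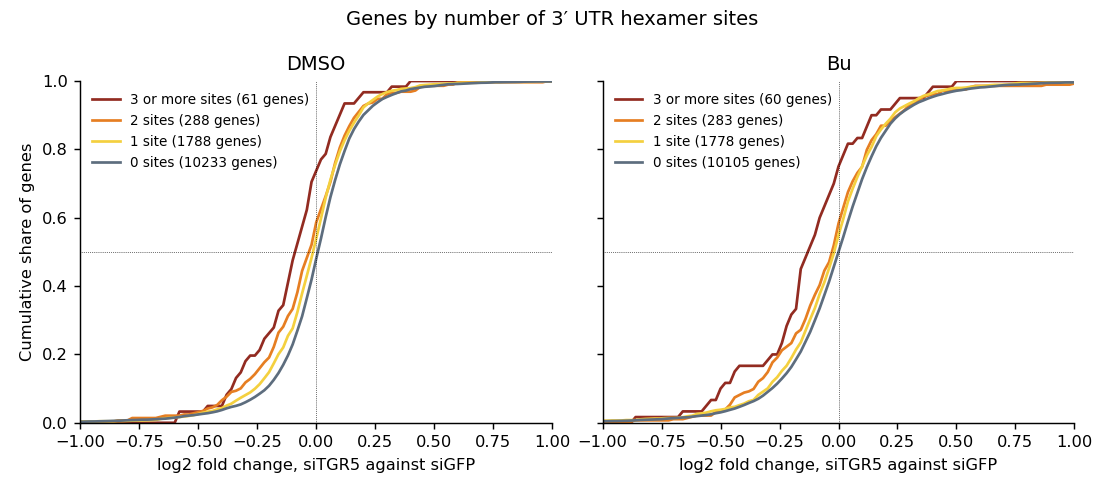
Cumulative share of genes against the log2 fold change of siTGR5 over siGFP, in DMSO (left) and with Bu (right), for genes with 3 or more, 2, 1 or no GCCTAC sites in the 3′ UTR. The curve of 3 or more sites (median -0.085 in DMSO and -0.129 with Bu) lies to the left of the curve without sites, except at the lowest values. At -0.6 and below in DMSO, and at -0.88 and below with Bu, it is at 0. There it lies under the curve without sites, which is at 0.0152 and 0.0065 at these 2 values.

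The genes of bile acid sensing and of the cascade under TGR5 are to be read against all genes tested, 13.8% called higher and 14.4% lower. Of 26 listed bile acid receptors and transporters 9 were expressed enough to test, and Vdr was called higher while Gpbar1 and the exporter Abcc3 (-0.13) were called lower. Without the rod-transcript libraries Abcc3 was the only member called lower, and Vdr was still called higher. Vdr, the vitamin D receptor, which also binds the bile acid lithocholic acid, had 74.2, 68.7, 70.2, 71.2 and 73.5 CPM in siTGR5 and 48.1, 50.8, 52.4, 54.5 and 52.1 CPM in siGFP. That is a log2 fold change of 0.47 ± 0.04 (edgeR adjusted p = 1.37e-07), with no overlap. Nr1h4, which encodes the nuclear bile acid receptor FXR, had a log2 fold change of 0.02 and S1pr2 of 0.03, neither called. Of 42 cyclic AMP and protein kinase A genes, 3 were called higher and 4 lower, shares of the list below the 13.8% and 14.4% of all genes, with a list median of -0.007. Akap5, the CREB coactivator Crtc1 (0.21) and the Epac gene Rapgef3 (0.21) rose, and the phosphodiesterase Pde8a (-0.31), Crem (-0.34), Gnai3 and the kinase A inhibitor Pkia fell. Gnas, the stimulatory G protein itself, had a log2 fold change of -0.01, Prkaca of 0.01 and Creb1 of 0.04, none called.

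Among the fast-responding genes that CREB and ERK control, more were lower than higher. Of 39 tested, 15 were called lower and 4 higher, with a median log2 fold change of -0.074. Of all genes tested, 14.4% were called lower and 13.8% higher. The ERK phosphatases Dusp4 (-0.61 ± 0.06) and Dusp6 (-0.38 ± 0.04), the AP-1 subunit Jun (-0.15) and Myc (-0.21) fell. Dusp4 had 29.9, 33.3, 28.3, 27.6 and 27.1 CPM in siTGR5, against 46.5, 41.6, 48.4, 42.6 and 44.3 CPM in siGFP, without overlap. Atf3 (0.45 ± 0.05), a stress-induced repressor of the same family, went the other way, as did Sik1, Btg2 and Nr4a2.

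Lipid synthesis was the list with the largest share of lower members. Of 16 genes of fatty acid synthesis, 13 were called lower and 1 higher, with a median log2 fold change of -0.143. Of 26 sterol genes 13 were called lower and none higher, median -0.125. The shares of all genes tested were 14.4% lower and 13.8% higher. Scd1, which puts a double bond into fatty acids, had 2020, 2020, 1950, 2000 and 1740 CPM in siTGR5, against 2870, 2900, 2700, 2820 and 2830 CPM in siGFP. All siTGR5 libraries were lower, with a log2 fold change of -0.54 ± 0.04 (edgeR adjusted p = 4.89e-08). Me1, the malic enzyme that supplies NADPH, changed by -0.47, Fasn by -0.29, the citrate lyase Acly by -0.23 and Acaca, which makes malonyl-CoA, by -0.24. Gpam, which starts glycerolipid assembly, was the 1 member called higher (0.16). In the sterol list the sterol carrier Stard4 (-0.30) and the phosphomevalonate kinase Pmvk (-0.36) fell. Me1, Scd1 and Stard4 held 2 GCCTAC sites each.

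Ribosomal protein and replication genes also held large shares called lower, against 14.4% lower and 13.8% higher of all genes tested. Of 47 cytosolic ribosomal protein genes, 29 were called lower and none higher, with a median log2 fold change of -0.236. Rps20 had 71.6, 76.7, 76.1, 74.8 and 72.5 CPM in siTGR5 and 92.4, 94.8, 97.2, 93.6 and 94.3 CPM in siGFP (-0.35 ± 0.03). The summed level of the list was 4768 to 5292 CPM in siTGR5 and 6033 to 6455 CPM in siGFP, without overlap. Many of these genes have near-identical processed copies in the genome, and the authors kept uniquely aligned reads, so their levels are uncertain. Of 40 genes for copying DNA and entering S phase, 23 were called lower and 2 higher, median -0.15. The helicase subunits Mcm6 (-0.29) and Mcm7 (-0.34), the replication initiator Mcm10 (-0.30) and the cyclin Ccnd1 (-0.21) fell, while E2f2 (0.24) and Ccnd3 rose. Mcm6 had 367, 356, 372, 378 and 347 CPM in siTGR5 against 454, 445, 423, 446 and 450 CPM in siGFP. Of 40 genes of mitosis, by contrast, 4 were called lower and 5 higher, median 0.031, with Ccnb2 (-0.41) and Kif11 (-0.19) lower and Aurkb and Ttk higher. The number of mitotic genes called higher was 2 without siTGR5 replicate 4, 3 without siTGR5 replicate 3 or 5 or siGFP replicate 1, 2 or 4, and 11 without siGFP replicate 5.

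**Figure D4:**
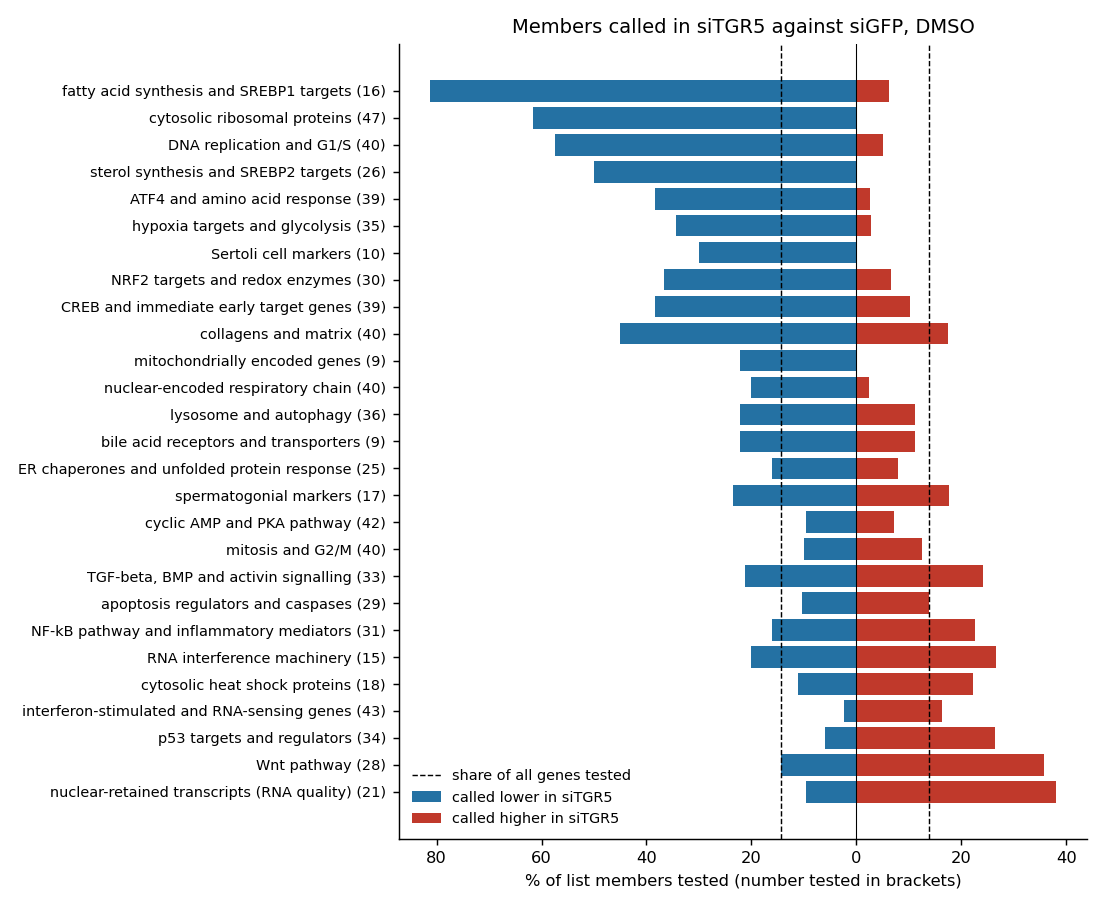
Share of the tested members of 27 gene lists called lower (left, blue) and higher (right, red) in siTGR5 than in siGFP in DMSO; the dashed lines mark the shares of all tested genes, 14.4% lower and 13.8% higher. Fatty acid synthesis, ribosomal proteins, DNA replication and sterol synthesis have the largest shares lower, and nuclear-retained transcripts and the Wnt pathway the largest shares higher.

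Several lists of stress and metabolism also had more lower than higher members, where 14.4% of all genes tested were called lower and 13.8% higher. Of 39 genes of the ATF4 amino acid response, 15 were called lower and 1, the factor Ddit3 (0.21), higher, median -0.087. Trib3 (-0.58), the cystine carrier Slc7a11 (-0.68) and the serine synthesis enzyme Psat1 (-0.30) fell, and Atf4 itself was not called (-0.11, edgeR adjusted p = 0.0683). Of 35 hypoxia and glycolysis genes, 12 were called lower and 1 higher, median -0.086, with Ldha (-0.17) and the phosphofructokinase Pfkl (-0.20) among the lower. Of 30 NRF2 target and redox genes, 11 were called lower and 2 higher, median -0.074. The lower ones included Tkt (-0.28), of the pentose phosphate pathway, and the aldehyde dehydrogenase Aldh3a1 (-0.41). The mitochondrial chaperone Hspd1 fell by 0.52 on the log2 scale. Of 40 nuclear-encoded respiratory chain genes, 8 were called lower and 1 higher, the share lower being nearer to that of all genes.

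Matrix genes moved both ways. Of 40 tested, 18 were called lower and 7 higher, each share above the 14.4% and 13.8% of all genes, with a median of -0.039. Fn1, fibronectin, had 1440, 1470, 1430, 1410 and 1370 CPM in siTGR5, against 1950, 1890, 1840, 2010 and 1930 CPM in siGFP (-0.44 ± 0.03). Fibrillin Fbn1 (-0.56), the collagen crosslinking oxidase Loxl2 (-0.43), the protease inhibitor Timp1 (-0.31) and Col1a1 (-0.22) fell, while Thbs1 (0.30) and Sparc (0.21), which bind matrix and cells, rose. Of 28 Wnt genes, 10 were called higher and 4 lower, median 0.01, the lower ones being 1 without siTGR5 replicate 3 and 2 without siTGR5 replicate 5 or siGFP replicate 1, 2 or 4. The ligand Wnt4 had 30.0, 29.8, 31.3, 28.6 and 28.9 CPM in siTGR5 and 19.9, 21.8, 20.7, 20.3 and 18.9 CPM in siGFP (0.55), Wnt9a rose by 0.54 and the feedback target Axin2 by 0.25. Of 33 TGF-beta, BMP and activin genes, 8 were called higher, with Bmp7 at 0.46 and the activin subunit Inhbb at 0.26, and 7 lower, with the BMP target Id1 at -0.38.

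Genes of innate sensing can be induced by foreign RNA. Of 43 interferon-stimulated and RNA-sensing genes, 7 were called higher and 1 lower, against 13.8% higher and 14.4% lower of all genes tested, with a median of 0.143. The number called higher was 15 with no filter on low counts, 4 without siGFP replicate 1, siTGR5 replicate 1 or siTGR5 replicate 3, and 14 and 12 without siGFP replicate 5 and siTGR5 replicate 5. Irf1 (0.23), the GTPase Gbp2 (0.38) and Xaf1 (0.48) rose, and Isg15 was not called (0.38, edgeR adjusted p = 0.252). Of 31 genes of the NF-kB pathway and inflammation, 7 were called higher and 5 lower. The alarmin Il33 had 11.1, 10.2, 10.6, 10.8 and 9.76 CPM in siTGR5 and 5.63, 6.03, 6.7, 6.99 and 6.04 CPM in siGFP (0.74 ± 0.07). Ptgs2, which makes prostaglandins, had 6.57, 6.95, 6.19, 5.26 and 6.33 CPM in siTGR5 and 12.7, 13.4, 12.1, 11.0 and 14.1 CPM in siGFP (-1.02 ± 0.08). The chemokines Ccl7 (0.69) and Cxcl10 (0.75) rose. Of 15 genes of the RNA interference machinery, 4 were called higher, among them Ago3 (0.18) and Adar (0.14), and 3 lower, among them Tnrc6c (-0.16).

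The counts of the next lists are to be read against the same shares of all genes tested, 13.8% higher and 14.4% lower, and several lie near them. Of 34 p53 targets and regulators, 9 were called higher and 2 lower, median 0.039. The ubiquitin ligase Mdm2, itself a p53 target, rose by 0.22, and Cdkn1a, the p21 cell cycle inhibitor, was not called (-0.08). Of 29 apoptosis genes, 4 were called higher, with the survival factor Mcl1 at 0.13, and 3 lower, with the caspase Casp2 at -0.30. Of 25 ER chaperone genes, 2 were called higher and 4 lower. Of 18 genes listed as cytosolic heat shock genes, 4 were called higher and 2 lower. The lower ones were Hsp90ab1 and Hspd1, of which Hspd1 is mitochondrial. Of 36 lysosome and autophagy genes, 4 were called higher and 8 lower, Npc1 and Npc2 having the smallest p, and 5 were called lower without siGFP replicate 1, 2 or 4. Among the cell type lists, 3 of 17 spermatogonial markers were called higher, led by Fgfr2 (0.27), and 4 lower, with Cd9 at -0.16 and Etv5 at -0.54. Of 10 Sertoli markers 3 were called lower, led by Gdnf (-0.31), and 1 without the rod-transcript libraries. Of 5 Leydig and peritubular markers Acta2 and Cnn1 (-0.52) were lower and Des (0.28) higher. Without the rod-transcript libraries Cnn1 and Des were not called. Of the 3 leukocyte markers tested, Lyz2 rose (1.25), at 0.781 to 1.2 CPM in siTGR5 and 0.24 to 0.653 CPM in siGFP, and Cd68 fell (-0.28), while Ptprc had 18 counts over all 10 libraries. Of 4 rod markers tested none was called, Gnat1 having a log2 fold change of -1.94. Prdm9, the 1 spermatocyte marker tested, was not called (0.16).

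The 8 Bu libraries repeated the siRNA comparison with no library in common. With Bu 13971 genes were tested and 1931 (13.8%) were called higher and 2300 (16.5%) lower. Without the 4 Bu libraries that held rod transcripts 2566 were called, 1191 higher and 1375 lower. Of 4009 genes called in DMSO and tested in both, 3773 (94.1%) had the same sign with Bu. Called in the same direction in both were 2456, that is 61.3% of the DMSO calls and 58.2% of the 4223 Bu calls, and 24 were called in opposite directions. Without the rod-transcript libraries of both agents 1488 were called in the same direction, 47.7% of 3120 DMSO calls and 58.1% of 2562 Bu calls, and 94.8% of those DMSO calls had the same sign with Bu. Gspt1 had 96.5, 97.5, 103 and 103 CPM in siTGR5 Bu and 152, 155, 160 and 157 CPM in siGFP Bu (-0.65), Npc1 changed by -0.53 and Acta2 by -1.47. Among the higher genes Akap5 changed by 0.92 with Bu, Vdr by 0.62 and Slc30a1 by 1.39. Gpbar1 had 15, 8, 10 and 11 counts in siTGR5 Bu and 8, 17, 17 and 15 in siGFP Bu, which overlap (-0.38, edgeR adjusted p = 0.425). The difference of its fold change between DMSO and Bu was -0.61 with an edgeR adjusted p of 0.625.

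A difference of the siRNA effect between DMSO and Bu was called for 203 of 14783 genes (1.37%), 96 higher and 107 lower in DMSO. By DESeq2 there were 402, and 47 without the rod-transcript libraries. The furthest apart was mt-Nd6 (ENSMUSG00000064368), a subunit of respiratory complex I. It had 42.7, 34.7, 26.0, 36.0 and 33.9 CPM in siTGR5 DMSO, against 129, 87.8, 152, 160 and 162 CPM in siGFP DMSO. With Bu it had 122, 128, 112 and 109 CPM in siTGR5 and 86.5, 73.1, 62.9 and 93.3 CPM in siGFP. The log2 fold change was -2.01 in DMSO and 0.57 with Bu, a difference of -2.58 (edgeR adjusted p = 1.03e-07). No siTGR5 library overlapped the siGFP libraries of the same agent. mt-Nd6 is the mitochondrial protein gene on the strand opposite to the others and overlaps mt-Nd5 at its end, and the strand setting of the counting is not given in the sources used here, so reads of the opposite strand cannot be told apart. Of the 9 mitochondrially encoded genes tested, mt-Nd6 and the ribosomal RNA mt-Rnr1 (-0.62) were called lower, and mt-Nd5 (0.05) and mt-Cytb (0.02) were not called. Without the rod-transcript libraries mt-Rnr1 was not called.

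Of the lists, glycolysis and hypoxia held the largest number of members whose siRNA effect differed by agent. Of 35 members 10 were called in the test of the difference, all with a lower siRNA effect in DMSO, and 9 without the rod-transcript libraries. With Bu 17 of the 35 were called higher and 1 lower, where in DMSO 1 was called higher and 12 lower. Of all genes tested, 1.37% were called in the difference. With Bu 13.8% of all genes were called higher and 16.5% lower, and in DMSO 13.8% and 14.4%. Pfkl had between 239 and 269 CPM in the 5 siTGR5 DMSO libraries and between 288 and 311 CPM in the 5 siGFP DMSO libraries, a log2 fold change of -0.20. With Bu it had 226, 266, 270 and 254 CPM in siTGR5 and 220, 212, 224 and 228 CPM in siGFP, a log2 fold change of 0.19 (difference -0.40, edgeR adjusted p = 0.00227). The glucose carrier Slc2a1 (difference -0.33), the lactate carrier Slc16a3 (-0.36) and the glycogen synthase Gys1 (-0.39) were also called lower in DMSO and higher with Bu. Of the ATF4 list 5 of 40 were called in the difference, with Slc7a11 at -0.76. With Bu 10 of 39 ATF4 genes were called higher and 4 lower, median 0.069. In DMSO 1 was called higher and 15 lower, median -0.087. Of the matrix list 6 of 40 were called in the difference, with Loxl2 at -0.32. With Bu 12 matrix genes were called higher and 9 lower, where in DMSO it was 7 and 18. Of the fatty acid, sterol, Wnt, interferon and mitosis lists none was called in the difference. Of the 48 ribosomal protein genes Rps20 (0.28) and Rpl13a (0.26) were called, with a stronger reduction under Bu, where 34 of 46 were called lower.

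**Figure D5:**
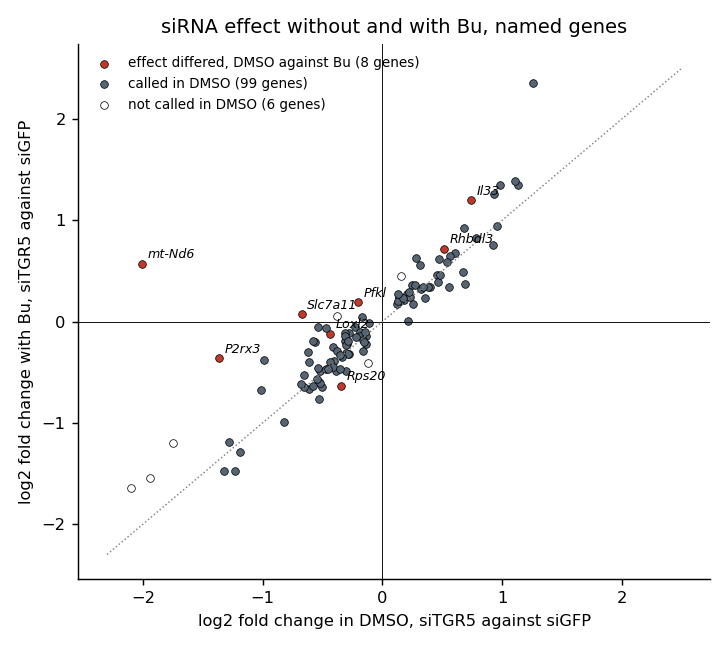
Log2 fold change of siTGR5 over siGFP in DMSO (horizontal) and with Bu (vertical) for the 113 genes chosen by the naming rule; red points are the 8 whose effect differed between the agents, grey points 99 others called in DMSO, open points 6 not called. mt-Nd6 lies at -2.01 in DMSO and 0.57 with Bu, away from the dotted line of equal effects.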

How the data were processed

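Poly(A) RNA of GC1spg cells was sequenced by the authors as stranded single-end libraries, mapped to mm10, and uniquely aligned reads were counted per gene with HTSeq. The study's methods name Hisat2, and the submitters' processing notes name TopHat2, Bowtie2 2.1.0 and DESeq2 1.0.19. The values used are the raw read counts deposited by the authors. Their normalized columns and the fold changes and p-values of their own comparisons were not used. Groups came from the sample labels.

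The test across genes was made on the counts by edgeR 4.0.16 under R 4.3.3 (TMM factors, filterByExpr with a minimum count of 10 and total of 15, quasi-likelihood F-test, Benjamini-Hochberg over all genes tested, call under 0.05). The siRNA comparison in DMSO used its 10 libraries, that with Bu its 8, and the difference all 18. An exact two-sided permutation test of log2(CPM + 0.5) was added for named genes. Fits were tested on simulated data. At 29451420 to 49638166 counts per library, Gpbar1 had so few reads that its counting error was wide. Named genes were Gpbar1, the 8 lower and 8 higher genes of smallest p, the 6 lower and 6 higher of greatest fold (called, separate groups, mean not under 1 CPM), and from each of 31 lists as many as 3 members of smallest p. Other genes given with a value belong to those lists or were chosen after their values were seen (Mt1, Gys1). The comparison, lists and rule were written with earlier results of these data known. The 3′ UTR was that of the principal transcript, the longest where several qualified, and the search was chosen after seeing the data. As alternatives served all 18 libraries in 1 fit, DESeq2 1.42.0, scaling by RLE, a mean of at least 1 CPM, no filter, the replicate number as a block, leaving out the rod-transcript libraries, and leaving out each library. No 2 libraries of a group differed by less than sampling noise. Some list members are not reported here.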

Additional observations from a re-analysis of the deposited data

Results flagged for a closer look

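The siRNA effect differed between DMSO and Bu, by edgeR's test of the difference over all 18 libraries, in 8 of the 110 named genes reported. The log2 fold change in DMSO minus that with Bu was -2.58 for mt-Nd6, -1.01 for P2rx3, -0.76 for Slc7a11, -0.47 for Il33, -0.40 for Pfkl, -0.32 for Loxl2, -0.21 for Rhbdl3 and 0.28 for Rps20.

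In 28 of 440 groups of 4 or 5 libraries checked, 1 library stood apart from the rest by Dixon's criterion, which chance alone meets in about 1 of 20 groups. In siTGR5 DMSO these were, in CPM, the rod genes Gnat1 (7.2) and Sag (4.96) in replicate 4, and Col11a2 (2.48), Luc7l3 (160), Pnisr (86.7), Rbm5 (137) and Scd1 (1740) in replicate 5. The others were Fgfr2 (16.4) and Sertad1 (14.5) in replicate 3, Inhbb (99.7) in replicate 1 and Mcl1 (268) in replicate 2. In siGFP DMSO they were Acsbg1 (5.98) in replicate 1, Mcm6 (423) in replicate 3, Ago3 (42.0) in replicate 4, and Aldh3a1 (22.1) and Cryab (93.7) in replicate 5. In siTGR5 Bu they were Loxl2 (110) in replicate 1 and Wnt9a (133) in replicate 2. In siGFP Bu they were Hsp90ab1 (2960) and Hspd1 (162) in replicate 1, and Ago3 (28.8), F2r (171) and Sertad1 (17.8) in replicate 2. Replicate 3 of siGFP Bu stood apart in Axin2 (67.0), Lyz2 (0.183) and Mdm2 (251), and replicate 4 in Pnisr (42.9) and Trib3 (38.4).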

How the results depend on the processing

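Leaving out the libraries that held rod transcripts changed the most. It dropped 3 of the 10 DMSO and 4 of the 8 Bu libraries, so each group was smaller. How many calls were lost through the smaller groups alone was not tested. Gpbar1 stayed at -0.97 with an edgeR adjusted p of 0.0692, over 0.05, the genes called with Bu numbered 2566 against 4231, and those called in the difference between agents 47 against 203, where DESeq2 called 402. Leaving these libraries out for Bu, for the difference and for the calls shared by both agents was chosen after seeing the data. At an unadjusted p under 0.05 the difference held 1993 genes. With 1 library left out, the DMSO calls ranged between 3407 (without siGFP DMSO replicate 1) and 4366, the higher genes between 1642 and 2132, the lower ones between 1757 and 2234, Gpbar1 between -1.127 and -0.77 (largest adjusted p 0.0431), and the calls with Bu between 3125 and 4128. The calls in the difference ranged between 87 and 270. They fell by more than 1.5 times without siTGR5 Bu replicate 2 (87), 3 (101) or 4 (97), siTGR5 DMSO replicate 1 (119), 3 (135) or 4 (118), or siGFP DMSO replicate 1 (125) or 3 (135). The replicate numbers are not said to pair libraries. Deviations of same-numbered libraries correlated between -0.108 and 0.142, and only replicate 5 matched its own number best. With the replicate block 4493 genes were called in DMSO, 2179 higher and 2314 lower, 4225 with Bu and 265 in the difference, and Gpbar1 was at -1.006. DMSO calls numbered 4086 by DESeq2, 4043 with RLE factors, 3852 with all 18 libraries in 1 fit, 3936 at a mean of 1 CPM and 4075 without a filter. Gpbar1 lies under that mean and had no value there. Of the 107 named genes called, Cnn1 alone lost its call when 1 library was left out, and Cnn1, Des, Rhox5, Trf and mt-Rnr1 lost theirs without the rod-transcript libraries. The rod genes Gnat1 and Sag were called with no filter and without siTGR5 DMSO replicate 4. No named gene turned its sign under a setting that was run. The median difference between genes with and without a GCCTAC site was -0.024, and -0.03 to -0.021 over 17 alternatives.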
